A study of Homo sapiens with 5 samples.

Results

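ASTN1 encodes astrotactin 1, and its footprints were followed through 3 of the 182398 transcript rows in a ribosome profiling table of HEK293T cells. The rows are uc001glb.3, uc001glc.5 and uc001gld.3, with 1229, 1295 and 1217 in the length column, which was read as codons. They were selected on the measured values described here: footprints present in the QTRT1 and QTGAL knockout libraries and close to 0 in both QTMAN knockout libraries. The levels and the differences between genotypes are therefore a description and carry no test. The tables do not pair identifiers with genes. The name ASTN1 comes from the label given to these rows together with the codon lengths. RefSeq names matched 2 of the 182398 identifiers and 0 of these 3, so the name was not checked against a second source.

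Astrotactin 1 is a membrane glycoprotein of neurons through which migrating neurons hold on to glial fibres. Its close relative astrotactin 2 binds it and regulates how much of it reaches the cell surface. Both carry a domain of the membrane attack complex and perforin family. The gene is known for its role in the developing brain.

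HEK293T is a line derived from human embryonic kidney. The 5 libraries came from knockouts of 3 genes that act on queuosine, the modified base in the anticodons of the transfer RNAs for tyrosine, histidine, asparagine and aspartate: 1 library of QTRT1 KO, 2 of QTGAL KO and 2 of QTMAN KO. The QTRT1 product takes part in placing queuosine in these transfer RNAs, QTGAL attaches galactose to it in the tyrosine one, and QTMAN attaches mannose to it in the aspartate one. Every group carries a knockout of one of these genes. Parental HEK293T cells were not analysed here, and a comparison is always of a knockout with another knockout. The labels name no clone, culture or pool for any library, and the meaning of the numbers in the library titles is not given. The replicates may be separate clones, separate cultures or technical repeats, so the spread between them may be technical. No RNA levels were analysed here, and less ASTN1 mRNA cannot be told apart from less translation of it. Counts summed to between 12002044 and 25291912 per library.

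In RefSeq's GRCh38.p14 annotation ASTN1 lies on the minus strand of chromosome 1, from base 176857321 to base 177164712, a span of 307392 bases with 4 curated mRNAs. The hairpin of MIR488 lies inside that span, on the same strand, from base 177029363 to base 177029445. The 250 bases upstream of the gene's start, chr1:177164713-177164962, are shown because the 3 rows carry the label of a single gene. Which start the rows use was not determined. The bases are written 5′ to 3′ on the minus strand, with CpG dinucleotides in capitals.
ASTN1 upstream region: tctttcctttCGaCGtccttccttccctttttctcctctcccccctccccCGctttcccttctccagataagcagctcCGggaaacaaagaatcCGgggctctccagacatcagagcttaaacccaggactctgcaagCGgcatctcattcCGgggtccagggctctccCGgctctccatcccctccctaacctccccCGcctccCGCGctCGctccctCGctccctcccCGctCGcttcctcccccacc

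This stretch holds 15 CpG dinucleotides, against a median of 11 over the 35116 promoters in the table cut to the same length, and 57.1% of those hold fewer. Its GC content is 62.8%, against a median of 58%. The motif TATAAA, searched on both strands, has 0 matches, where 10.7% of promoters have at least 1. The motif CCAAT has 0 matches, where 32.0% have at least 1, and GGGCGG has 0 matches, where 42.6% have at least 1. These are descriptions of the letters. No library here measured binding, methylation or transcription at this start.

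The row uc001glc.5, the longest and the most counted, held 36 footprints in the QTRT1 KO library, 52 and 13 in QTGAL KO replicates 1 and 2, and 0 and 3 in QTMAN KO replicates 1 and 2. As CPM, the count scaled to the effective library size, these were 2.56, 2.18, 1.09, 0 and 0.123. All 3 libraries of the other genotypes stood above both QTMAN KO libraries, as the choice of these rows required. The share of all transcripts ordered this way at any margin was not counted.

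The exact Poisson 95% interval ran from 1.79 to 3.54 CPM in the QTRT1 KO library. It ran from 1.63 to 2.85 and from 0.582 to 1.87 CPM in QTGAL KO replicates 1 and 2. In QTMAN KO replicate 2 it ran from 0.0253 to 0.359 CPM. These intervals, like all others given here, cover counting error only, and since the labels mention no molecular identifiers a footprint is a read and not a molecule. For the count of 0 in QTMAN KO replicate 1 it reached up to 0.193 CPM, where the 3 counts used below as a floor are worth 0.157 CPM. The QTMAN KO replicates, at 0 and 3 counts, are thus not distinguishable at this depth.

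**Figure D1:**
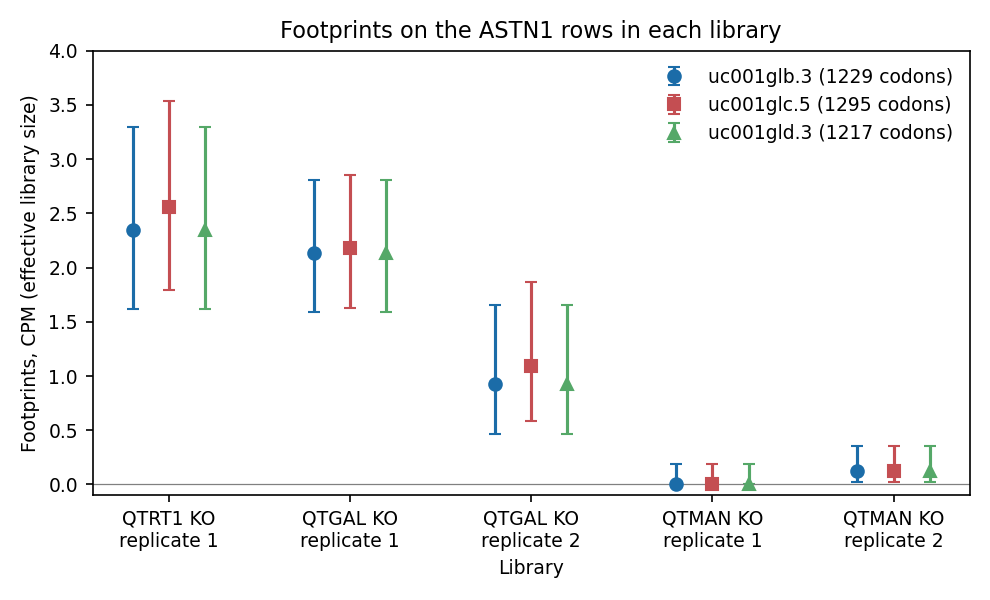
Footprint level in CPM (vertical axis) of the 3 ASTN1 rows in each of the 5 libraries (horizontal axis). Points are single libraries and bars are exact Poisson 95% intervals of the count. For uc001glc.5 the QTRT1 KO and QTGAL KO libraries lie between 1.09 and 2.56 CPM and the QTMAN KO libraries at 0 and 0.123 CPM.

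The rows uc001glb.3 and uc001gld.3 held identical counts in every library: 33 in QTRT1 KO, 51 and 11 in QTGAL KO replicates 1 and 2, and 0 and 3 in QTMAN KO replicates 1 and 2. Their levels were 2.34, 2.13, 0.925, 0 and 0.123 CPM in the same order. They repeat the pattern of uc001glc.5 and are not separate evidence of it, since a footprint that fits several isoforms may enter more than 1 row.

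Over the 5 libraries uc001glc.5 gathered 104 footprints and each of the other rows 98, which is 94.2% as many. The longest row exceeded the others by 3 footprints in QTRT1 KO, by 1 and 2 in QTGAL KO replicates 1 and 2, and by 0 in both QTMAN KO libraries. These 6 footprints are all that separates the isoforms, over a difference of 66 codons from uc001glb.3 and 78 from uc001gld.3. Footprints per 1000 codons were 79.7, 80.3 and 80.5 for uc001glb.3, uc001glc.5 and uc001gld.3. The densities lay within 0.786 of each other on that scale, and these counts do not tell which isoform the cells translated.

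QTGAL KO was set against QTMAN KO, the knockout of the galactose enzyme against that of the mannose enzyme. The mean level of uc001glc.5 was 1.63 ± 0.766 CPM in QTGAL KO and 0.0613 ± 0.0867 CPM in QTMAN KO (SD, n = 2 each). Summed within genotype, 65 footprints in QTGAL KO faced 3 in QTMAN KO, a ratio of levels of 26.4 with an exact 95% counting interval from 8.64 to 131. At the QTGAL KO rate, the QTMAN KO libraries would have held 79.1 footprints together. The lower of the QTGAL KO libraries, replicate 2 with 13 footprints, still stood 15.9 times above the summed QTMAN KO level, with a counting interval from 4.36 to 86.8.

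For uc001glb.3 and uc001gld.3 the same comparison set 62 against 3 footprints, a ratio of 25.2 with an interval from 8.22 to 125. The edgeR fit over all transcripts gave uc001glc.5 a log2 ratio of 4.53 ± 0.68 (SE) for QTGAL KO over QTMAN KO. Each edgeR SE here is the log2 ratio divided by the square root of the test's F statistic, not a fitted error. DESeq2 gave 4.63 ± 1.07, a wider SE. The edgeR log2 ratio was 3.87 without QTGAL KO replicate 1, 4.87 without QTGAL KO replicate 2 and 3.76 without QTMAN KO replicate 1. Without QTMAN KO replicate 2 the QTMAN count is 0. With 3 counts set for that 0 the log2 ratio is 3.53, which is not a confidence bound.

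QTRT1 KO, which lacks an enzyme needed for queuosine itself, was next set against QTMAN KO. For uc001glc.5 the 36 footprints of the single QTRT1 KO library faced 3 in the QTMAN KO libraries, a ratio of 37.1 with a counting interval from 11.7 to 189. The other rows, with 33 against 3, gave a ratio of 34.0 with an interval from 10.7 to 174. The edgeR log2 ratio of uc001glc.5 was 5.09 ± 0.74 (SE derived as above), and DESeq2 gave 5.25 ± 1.17. The edgeR log2 ratio was 4.32 without QTMAN KO replicate 1. Without QTMAN KO replicate 2 it was 4.03, again with 3 counts set for the 0. This comparison shares the QTMAN KO libraries with the preceding one, so the 2 ratios are not independent.

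Between QTRT1 KO and QTGAL KO the levels lay close. The ratio for uc001glc.5 was 1.41, QTRT1 KO over QTGAL KO, with a counting interval from 0.910 to 2.15 that includes equality. The edgeR log2 ratio was 0.56 ± 0.48 (SE derived as above), and DESeq2 gave 0.62 ± 0.83. The edgeR log2 ratio was 1.22 without QTGAL KO replicate 1 and 0.24 without QTGAL KO replicate 2, so its size depended on which QTGAL KO library was kept. Against QTGAL KO replicate 1 alone the ratio was 1.18, with an interval from 0.746 to 1.83, and against replicate 2 alone it was 2.34, with an interval from 1.21 to 4.81.

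The QTGAL KO replicates themselves stood apart by a factor of 1.99 for uc001glc.5, with a counting interval from 1.07 to 3.99. For the other rows the factor was 2.31, with an interval from 1.19 to 4.91. In the order of levels, the QTRT1 KO library and QTGAL KO replicate 1 did not differ beyond counting error, QTGAL KO replicate 2 lay below both, and the QTMAN KO libraries lay at the bottom.

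ASTN1 was sparsely covered even where its footprints were present. Per 1000 codons, uc001glc.5 stood at 1.97 CPM in QTRT1 KO and at 1.68 and 0.844 CPM in QTGAL KO replicates 1 and 2, where the median transcript stood at 14.5, 14.5 and 14.2 CPM. It exceeded 8.12%, 7.81% and 2.71% of the 60966 tested transcripts in these libraries, on that scale. In QTMAN KO replicate 2 it stood at 0.0947 CPM per 1000 codons, above 0.0968% of them. Its total of 104 footprints owes much to length, since 4.81% of tested transcripts have 1217 codons or more and the median is 251.

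A search of the whole table asked how often the QTMAN KO libraries lay this far below the others. A row was counted where each QTRT1 KO and QTGAL KO library was at least 4 times the higher of the QTMAN KO libraries, with counts under 3 in a QTMAN KO library set to 3. Of the 60966 tested transcripts 3 met this, or 0.00492%, and these were the 3 ASTN1 rows, which form 1 group of neighbouring rows. As the rows were chosen for this pattern, the count describes the table and supports nothing further. The margin, the lowest other library over the highest QTMAN KO library with that floor, was 6.96 for uc001glc.5 and 5.89 for the other rows. It was set by the floor in QTMAN KO replicate 1. Over the measured level of QTMAN KO replicate 2, QTGAL KO replicate 2 stood 8.91 and 7.54 times higher. The next row outside, of 1436 codons, had a margin of 2.72 from 6 footprints in QTRT1 KO, 12 and 8 in QTGAL KO and 2 and 3 in QTMAN KO.

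At a margin of at least 2, 44 rows in 29 groups of neighbours qualified, and at 8 there were 0. The floor limits the margin that rows with few footprints can reach. The mirror pattern, QTMAN KO at least 4 times above every other library, was met by 0 rows, and so was QTGAL KO at least 4 times below or above the others. For the single QTRT1 KO library, 17 rows lay at least 4 times below and 11 at least 4 times above the other libraries, a condition that 1 library meets more easily than a pair. The 3 ASTN1 rows were among the 44 and in none of the other sets.

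**Figure D2:**
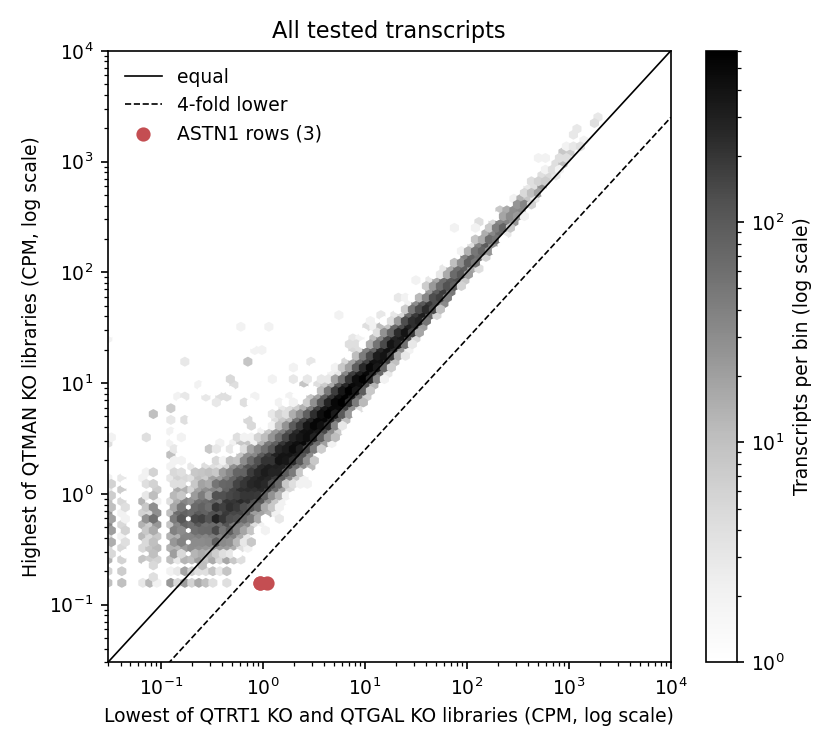
Each of the 60966 tested transcripts by its lowest level among the QTRT1 KO and QTGAL KO libraries (horizontal axis, CPM, log scale) and its highest level in the QTMAN KO libraries (vertical axis, CPM, log scale, counts under 3 set to 3, and values below an axis drawn at its edge). Shading gives transcripts per bin, the solid line marks equality and the dashed line 4-fold lower; the 3 ASTN1 rows, 2 of them coinciding, are the points beyond the dashed line.

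All 3 rows passed edgeR's filter on low counts, which they did through the libraries where they were present. In QTGAL KO against QTMAN KO the edgeR quasi-likelihood test called 0 of 60966 transcripts, or 0%, at an adjusted p of 0.05, the ASTN1 rows included, with 3954 transcripts under an unadjusted p of 0.05. DESeq2 called 12 of the 4231 transcripts to which it gave an adjusted p in that comparison, and it gave the ASTN1 rows none. In the edgeR fit of that comparison uc001glc.5 ranked 22 of 60966 by the size of its log2 ratio and 1 by p. In QTRT1 KO against QTMAN KO 69 transcripts were called, or 0.113%, of which 41, or 0.0673%, were higher in QTRT1 KO, and the 3 ASTN1 rows were among these. DESeq2 called 163 of 12505 there and again gave the ASTN1 rows no adjusted p. In QTRT1 KO against QTGAL KO 6 were called, or 0.00984%, and 0 of them were ASTN1 rows. The choice of rows used all 5 libraries, so nothing is read from their place in these comparisons. The median log2 ratio over all tested transcripts lay at 0.00, -0.01 and 0.00 in the 3 comparisons as listed.

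Well-counted rows near ASTN1 in the tables did not fall near 0 in the QTMAN KO libraries. Of the 20 rows on each side, 12 carried a length and 11 had a count. The nearest row with at least 100 footprints lay 11 rows before, with 189 codons, and stood at 1.07 CPM in QTRT1 KO, 1.38 and 1.60 CPM in QTGAL KO and 1.05 and 0.941 CPM in QTMAN KO. The nearest after lay 28 rows on, with 1281 codons, and stood at 9.38 CPM in QTRT1 KO, 8.58 and 6.89 CPM in QTGAL KO and 7.11 and 8.46 CPM in QTMAN KO. Both had footprints in every QTMAN KO library, though the first also stood higher in every QTRT1 KO and QTGAL KO library than in either QTMAN KO library.

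Over the 50 rows with a count on each side, 100 in all, the median log2 ratio of QTGAL KO to QTMAN KO was 0.07, with a range from -0.85 to 0.64, on the log2(CPM + 0.5) scale. On that scale uc001glc.5 stood at 1.93. The ratio of QTRT1 KO to QTMAN KO had a median of -0.04 and a range from -0.64 to 0.50 over the same rows, against 2.45 for uc001glc.5. Within 20 rows of ASTN1, the 5 rows with at least 100 footprints lay above both medians. They stood at 0.41 to 0.59 for QTGAL KO over QTMAN KO and at 0.07 to 0.48 for QTRT1 KO over QTMAN KO. Of these 100 rows 23 held at most 4 footprints over all libraries, too few to show such a difference. Some of the 100 rows have equal totals and ratios, may repeat the same footprints and are not independent. The 61 rows with at least 98 footprints, as many as the least counted ASTN1 row, ranged from -0.84 to 0.64 for QTGAL KO over QTMAN KO and from -0.64 to 0.50 for QTRT1 KO over QTMAN KO. The pseudocount of 0.5 CPM shrinks the ratio of rows as low as these. Whether row order follows the genome is not stated in the tables.

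**Figure D3:**
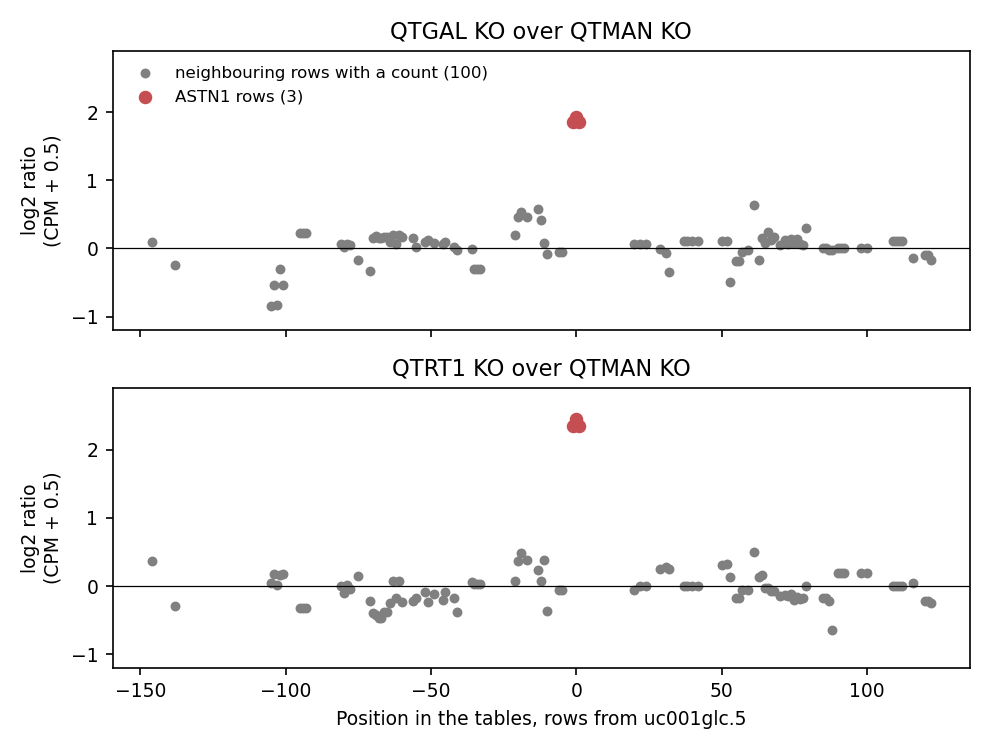
Log2 ratio of CPM + 0.5 (vertical axis) for the ASTN1 rows and the 100 nearest rows with a count, by position in the tables counted in rows from uc001glc.5 (horizontal axis). The upper panel gives QTGAL KO over QTMAN KO, where neighbours lie between -0.85 and 0.64, and the lower QTRT1 KO over QTMAN KO, where they lie between -0.64 and 0.50; uc001glc.5 is at 1.93 and 2.45.

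Among the rows searched, none came as near to uc001glc.5 as the other ASTN1 rows, which may hold largely the same footprints. Rows that stayed under 2 CPM in every library were not searched. Likeness was measured as the root mean square difference, over the 5 libraries, of log2(CPM + 0.5) centred on each row's mean, among 43876 rows that reached 2 CPM in some library and lay over 100 rows away. The closest was uc009ycv.2, of 697 codons, at 0.516, against a median of 1.08 and a difference of 0.0643 for the 2 other ASTN1 rows. It held 72 footprints in QTRT1 KO, 79 and 34 in QTGAL KO and 21 and 45 in QTMAN KO, so it was still present in the QTMAN KO libraries, at 1.10 and 1.84 CPM. The second, uc057xsg.1, of 675 codons, lay 2 rows from the first, at 0.523, with nearly the same counts. The likeness rests on 5 libraries, and a row was not required to fall near 0 in QTMAN KO.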

How the data were processed

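Ribosome footprints were counted per transcript in 5 libraries. The deposited tables hold an identifier, a length of unit other than a count (read as codons) and a whole-number footprint count, not normalized by the authors. Per the submitters' processing notes, bcl2fastq 2.19, CASAVA and STAR 2.7.0a were used with build hg38. The annotation, counting program and strand setting were not given in the sources used here. Of 182398 rows 93916 had a length, 79348 of these a count, and 60966 passed filterByExpr. edgeR 4.0.16 (R 4.3.3, TMM, quasi-likelihood test, 1 mean per genotype, 2 residual degrees of freedom) was fitted over all of them with Benjamini-Hochberg adjustment. It was tested on simulated data for each comparison, with 200 transcripts changed 4-fold. It recovered 95.5%, 86% and 85% of them for QTGAL against QTMAN, QTRT1 against QTMAN and QTRT1 against QTGAL. The changed transcripts were drawn above a cut on mean level. The simulated spread followed the fitted trend, with no variation of single transcripts around it. These shares therefore do not give the recovery in the measured data. DESeq2 1.42.0 was an alternative. Intervals are exact Poisson, and exact conditional for ratios (scipy 1.17.1).

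The ASTN1 rows, the lists and the tests were chosen with earlier results of these data known. Named besides them are the 2 rows of most alike profile. Replicates were numbered in accession order. The planned list of genes for neuronal migration and the check of the targeted genes needed gene names and were not run; nor was the protein composition, for which no sequence was used.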

Additional observations from a re-analysis of the deposited data

How the results depend on the processing

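Alternative settings gave 84 log2 ratios of the ASTN1 rows, identical for uc001glb.3 and uc001gld.3 and so not independent. Of these 72 moved by less than the replicate SD, 12 by more and 0 changed sign. That SD, 0.659 to 0.817 log2, depends on the 0.1 CPM added. The ASTN1 rows did not reach 5 CPM in 2 libraries and had no value under that filter. With a prior count of 2 the ratios of uc001glc.5 to QTMAN KO were 3.39 from QTGAL KO and 3.93 from QTRT1 KO, because the prior pulls counts near 0 upwards. For uc001glc.5, leaving out each replicate but QTMAN replicate 2 gave 3.76 to 4.87 for QTGAL over QTMAN and 4.32 to 5.11 for QTRT1 over QTMAN. Without QTMAN replicate 2, 6 further ratios were taken with 3 counts set for the 0 and are not confidence bounds. For uc001glc.5 they were 3.53 and 4.03. For QTRT1 over QTGAL all leave-outs gave 0.24 to 1.22 for uc001glc.5 and 0.14 to 1.33 for the other rows.

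Numbers of transcripts called moved more, and the cause was not tested. For QTGAL against QTMAN, QTRT1 against QTMAN and QTRT1 against QTGAL they were 282, 1159 and 645 with no filter. With the replicate block they were 47, 495 and 133. DESeq2 called 12 of 4231, 163 of 12505 and 51 of 14868 transcripts with an adjusted p. Library totals gave 203 and 35 in the last 2, DESeq2 size factors 11 in the last, and 5 CPM in 2 libraries 26 for QTRT1 against QTMAN. Leaving out each replicate gave 9 to 506, 172 to 1144 and 7 to 869. In QTGAL against QTMAN all 3 ASTN1 rows were among the 282 of 79348 transcripts called with no filter. With the replicate block 1 of them was among the 47 of 60966. In QTRT1 against QTMAN all 3 were among the 1159 of 79348 called with no filter. They were also among the 495 of 60966 with the replicate block, 203 with library totals and 78 with DESeq2 size factors. DESeq2 gave them no adjusted p, and 5 CPM in 2 libraries did not test them. The rows were chosen on these values and may share most of their footprints, so nothing is read from these calls. The replicates share only a number, and their deviations correlated at r = 0.187 across 60966 transcripts. The median of the neighbouring rows kept within their spread at other windows and pseudocounts, and among rows with at least 98 footprints, a setting chosen after seeing the data. Depth limits the ratios, since the QTMAN KO libraries held 3 footprints in all.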
